A study of Mus musculus with 4 samples.

Results

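The autophagy and lysosome genes examined here are 32 genes chosen by name: 17 of the autophagosome, 14 of the lysosome, and Tfeb, the transcription factor that activates many of them. Each was read at the brightest probe set that carries its symbol alone, by the mean over all arrays. This gave values for 30 of the 32 genes, among 18193 genes with such a probe set; Bnip3l, whose probe sets also carry the symbol of a pseudogene, and Cd63 were not analysed here. All 30 passed the filter on dim probe sets, which left 15102 genes for testing. All 30 also lay above the array's background controls on all 4 arrays.

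The RNA came from the tibialis cranialis, a muscle at the shin, of 8 male mice of strain C57Bl/6 that shared 1 diet: all were moved to high fat food at 8 weeks of age. After 4 weeks of this diet, 1 leg of each mouse received AAV8 ProMyo by intramuscular injection and the opposite leg received saline, and both muscles were collected after a further 10 weeks, at an age of 22 weeks. AAV8 is an adeno-associated virus used to carry genes into muscle, and ProMyo is the myostatin propeptide, which holds myostatin, an inhibitor of muscle growth, in an inactive complex. The control carried no empty vector, so an effect of the vector and one of the propeptide cannot be told apart, and the promoter of the transgene is not given in the sources used here. Each array held equal amounts of RNA from 4 animals, so each treatment had 2 arrays, from animals 1-4 and 5-8 in both. In RNA from whole muscle, fewer cells of a type and less RNA per cell cannot be told apart.

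Autophagy encloses cytoplasm and organelles in a double membrane, the autophagosome, which fuses with the lysosome, where acid hydrolases break the contents down. Small proteins of the LC3 and GABARAP family are attached to lipid on the growing membrane by a chain of conjugating enzymes, and cargo receptors bind both them and the cargo. In muscle the pathway clears mitochondria and supplies amino acids during fasting and wasting. Transcription of its genes is driven by FoxO factors, which are restrained by Akt, a kinase that myostatin signalling holds down, and by Tfeb and its relative Tfe3, which bind the E-box letters CACGTG in the promoters of lysosomal genes. The comparison of both legs addresses what the propeptide changes in muscle gene expression.

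Since members of this group are known for their E-boxes, the clearest cases are shown first. Promoters were taken from RefSeq (GRCm38.p6), from 250 bases before to 50 bases after each start site, and 25 of the 32 genes had 29 promoters there. The palindrome TCACGTGA, in capitals below and printed 5′ to 3′ on the strand of the gene, was found in 3 of the 29, those of Ctsa, Ctsd and Atg3.
Ctsa, chr2:164833758-164833786 on the plus strand: tgTCACGTGAtgcagatgcTCACGTGAcc
Ctsd, chr7:142387908-142387937 on the minus strand: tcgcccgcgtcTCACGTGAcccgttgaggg
Atg3, chr16:45158746-45158775 on the plus strand: ggagagtcgagTCACGTGAggccttaggtg
Lamp1 is added because it held 4 copies of the shorter CACGTG, in capitals, in the 70 bases before its start site.
Lamp1, chr8:13159091-13159160 on the plus strand: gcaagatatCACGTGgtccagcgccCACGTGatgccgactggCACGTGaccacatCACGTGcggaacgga

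The shorter letters CACGTG, which TCACGTGA contains and which read the same on both strands, were in 9 of the 29 promoters (31%), against 7.15% of all 32851 promoters in the table. They occurred once or more at Atg3, Atg5, Atg7, Bnip3, Ctsa, Ctsd, Ctsl, Gaa and Lamp1. TCACGTGA was in 10.3% of the 29 promoters and in 0.974% of all. GTAAACA, the core letters of a FoxO site, searched on both strands with TGTTTAC as its reverse, was in 0 of the 29 promoters and in 3.65% of all. Such matches describe the letters of these windows and do not show binding.

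The arrays were alike in their medians, and 1 stood apart in other measures. The saline 5-8 array had the lowest upper quartile, 2.97 against 3.15 to 3.20 on the log2 scale, and the brightest spiked hybridization controls, 11.1 against 10.1 to 10.2. The highest of its 27 background controls reached 0.99, against 0.57 to 0.76 on the other arrays. Markers of the muscle fibre were bright on every array: the 14 markers summed to between 36482 and 40658 in linear signal, and none was within background. The excess of 3′ over 5′ signal, a sign of RNA integrity and amplification, was lower on both ProMyo arrays than on both saline arrays, at 0.58 and 0.74 against 0.90 and 0.81 for Gapdh and at 1.64 and 1.72 against 1.96 and 1.80 for Actb (log2). The part of these technical differences in the results below was not tested.

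None of the 30 genes passed the test of ProMyo against saline muscle across all genes. By limma with Benjamini-Hochberg adjustment over 15102 genes, 0 of the 30 had an adjusted p under 0.05 (0% of all genes did), and their smallest adjusted p was 0.822. At an unadjusted p under 0.05 there were also 0 of 30, against 5.79% of all genes. With the pools of animals as a paired block, the counts for the 30 genes were 0 and 0, against 0% and 6.88% of all genes. The differences ran from -0.37 at Atg7 to 0.42 at Atg5 (log2, ProMyo minus saline), with standard errors of 0.15 to 0.55.

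The error of the fit gives an interval for each difference at the brightest probe set, which does not cover disagreement with the gene's other probe sets. The 95% interval of the difference, from limma's moderated error with 5.16 degrees of freedom, lay within 1.5-fold in either direction at 18 genes and within 2-fold at 27. The 3 genes with wider intervals were Pik3c3, Atg5 and Tfeb. With the paired pools as a block, the counts were 18 and 28, and the interval of Pik3c3, from -0.093 to 0.88, then lay within 2-fold. At Sqstm1, for example, the interval ran from -0.38 to 0.41 and at Lamp1 from -0.48 to 0.36. The median size of the difference was 0.106 for the 30 genes and 0.165 for all genes; their probe sets were also brighter, with a median level of 6.32 against 2.64.

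By direction, 6 of the 30 genes were higher with ProMyo in both pools and 11 were lower in both, where 29% and 24% of all genes were. The other 13 went opposite ways in the pools, as 47% of all genes did. Both ProMyo arrays lay above both saline arrays at Atg12, Scarb2 and Ctsl, which is 3 of 30 against 17.8% of all genes. They lay below both at 7 of 30, against 15.7% of all genes: Map1lc3b, Bnip3, Becn1, Atg3, Atg4b, Atg7 and Npc2. The median difference was -0.055 for the 30 genes and 0.013 for all genes. Against the saline 1-4 array alone, with the array that stood apart left out, both ProMyo arrays were above at 5 of 30 genes and below at 18 of 30, where 29.5% and 36.9% of all genes were.

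**Figure D1:**
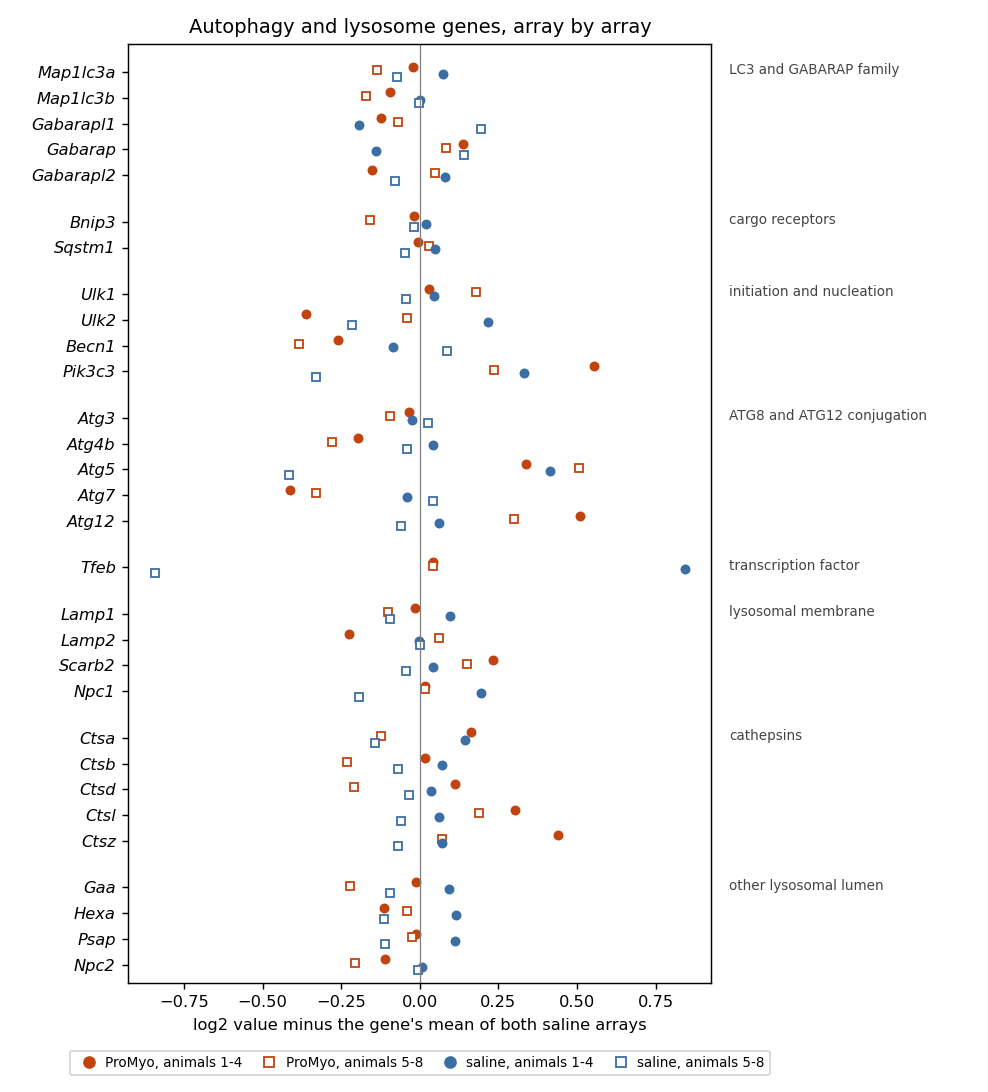
Log2 value of each of the 30 genes on each array, minus the mean of that gene's 2 saline arrays (horizontal axis), with the genes grouped by role. Orange marks are ProMyo and blue marks saline; filled circles are animals 1-4 and open squares animals 5-8. Most genes lie within 0.5 of their saline mean, and at Tfeb the 2 saline arrays lie farthest apart.

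The genes for the proteins that mark the autophagosome membrane had small differences between the legs. The 5 genes of the LC3 and GABARAP family had a median difference of -0.080, with 0 higher in both pools, 2 lower in both and 3 opposite. Map1lc3b, which encodes LC3B, the usual marker of autophagosomes, read 8.87 and 8.79 in ProMyo legs (animals 1-4 and 5-8) and 8.96 and 8.96 in saline legs. Both ProMyo values were the lower ones, by 0.13 ± 0.15 (log2 difference ± SE, n = 2 arrays a group; limma, adjusted p = 0.909). The next brightest probe set of Map1lc3b read the other way by 0.28, with both ProMyo arrays (8.46 and 8.22) above both saline arrays (8.07 and 8.04), so the direction at this gene rests on the probe set.

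Map1lc3a, which encodes LC3A, was lower in both pools, with differences of -0.096 and -0.064. The GABARAP relatives, which act mostly in the later closing and fusion of the autophagosome, went opposite ways in the pools. Gabarap differed by 0.28 in animals 1-4 and by -0.059 in animals 5-8. Gabarapl1, a FoxO target in muscle, differed by 0.07 and -0.26. Gabarapl2 differed by -0.23 and 0.13. Their mean differences lay between -0.10 and 0.11.

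Of the cargo receptors, Bnip3, which sits on mitochondria and draws them into autophagosomes, read 8.77 and 8.63 in ProMyo legs and 8.81 and 8.77 in saline legs. The ProMyo values lay just below the saline values, with a difference of -0.090 ± 0.16 (limma, adjusted p = 0.947, n = 2). Sqstm1, the receptor for ubiquitinated protein, read between 6.98 and 7.08 on all 4 arrays. Its groups overlapped, and its difference was 0.011 ± 0.16; the next brightest probe set read -0.22.

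Among the genes that start an autophagosome, Becn1 stood lower in ProMyo muscle. It encodes Beclin 1, the scaffold of the lipid kinase complex that marks the site of a new autophagosome. Becn1 read 7.36 and 7.24 in ProMyo legs and 7.54 and 7.71 in saline legs, and the groups did not overlap. The difference was -0.32 ± 0.17, which puts saline 1.25-fold above ProMyo muscle (limma, adjusted p = 0.825, n = 2). The pools gave -0.17 and -0.47. The next 2 brightest probe sets of Becn1, at -0.21 and -0.28, were also lower in both pools, and the fourth read 0.023 with opposite signs. The dimmest, within background on 1 or more arrays, read 0.60, and the mean of all 5 was -0.038.

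Pik3c3, the catalytic kinase of the same complex, went the other way by 0.39 ± 0.27, with 0.22 and 0.56 in the pools. Its level was 3.72 and 3.39 in ProMyo legs and 3.49 and 2.83 in saline legs, so the groups overlapped, and without the saline 5-8 array its difference was 0.064. Ulk1, the kinase that triggers autophagy under low nutrients, differed by 0.10 ± 0.16, and its next brightest probe set by -0.25. Ulk2, its close relative, differed by -0.58 in animals 1-4 and by 0.18 in animals 5-8. The dimmer probe sets of Ulk2 read 0.027, 0.21 and 0.59, and the mean of all 4 was 0.16. The 4 genes had 1 higher in both pools, 1 lower in both and 2 opposite.

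The genes of the conjugation enzymes held the largest differences of the autophagosome genes, in both directions. Atg12, a ubiquitin-like protein that is joined to Atg5, read 6.92 and 6.71 in ProMyo legs and 6.47 and 6.35 in saline legs. Both ProMyo arrays were higher, and the pools differed by 0.45 and 0.36. The difference was 0.40 ± 0.17, or 1.32-fold (limma, adjusted p = 0.822, n = 2), and the next brightest probe set read 0.74 and was likewise higher in both pools.

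Atg7, the activating enzyme that Atg12 and the LC3 family share, was dim and lower, at 1.72 and 1.80 in ProMyo legs and 2.09 and 2.17 in saline legs. The groups did not overlap and both pools gave -0.37. The difference was -0.37 ± 0.16 (limma, adjusted p = 0.822, n = 2). The other probe sets of Atg7, each within background on 1 or more arrays, read the other way, at 0.30, 0.11 and 0.048. The direction at Atg7 thus rests on 1 dim probe set.

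Atg4b, the protease that trims LC3 before its conjugation, read 3.44 and 3.36 in ProMyo legs and 3.68 and 3.59 in saline legs. Both pools gave -0.24, and the difference was -0.24 ± 0.16 (limma, adjusted p = 0.846, n = 2). The next brightest probe set of Atg4b read 0.081. Atg3, the enzyme that passes LC3 to its lipid, read 4.92 and 4.86 in ProMyo legs and 4.93 and 4.98 in saline legs, nearly level in animals 1-4. Its difference was -0.064 ± 0.15 (limma, adjusted p = 0.967, n = 2).

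Atg5, the partner of Atg12, had the highest mean difference of the 30 genes, 0.42 ± 0.30, and it rested on 1 array. Atg5 read 3.52 and 3.69 in ProMyo legs and 3.60 in the saline 1-4 array, against 2.77 in the saline 5-8 array, and without that array the difference was 0.007. The dimmer probe sets of Atg5 read 0.085 and -0.46, the last lower in both pools, and the mean of all 3 was 0.014. Over all 16 measured autophagosome genes, 2 were higher in both pools, 7 lower in both and 7 opposite. Their median difference was -0.072, with -0.066 in animals 1-4 and -0.062 in animals 5-8. Leaving out ProMyo 5-8 gave -0.028 and leaving out saline 1-4 gave -0.019.

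**Figure D2:**
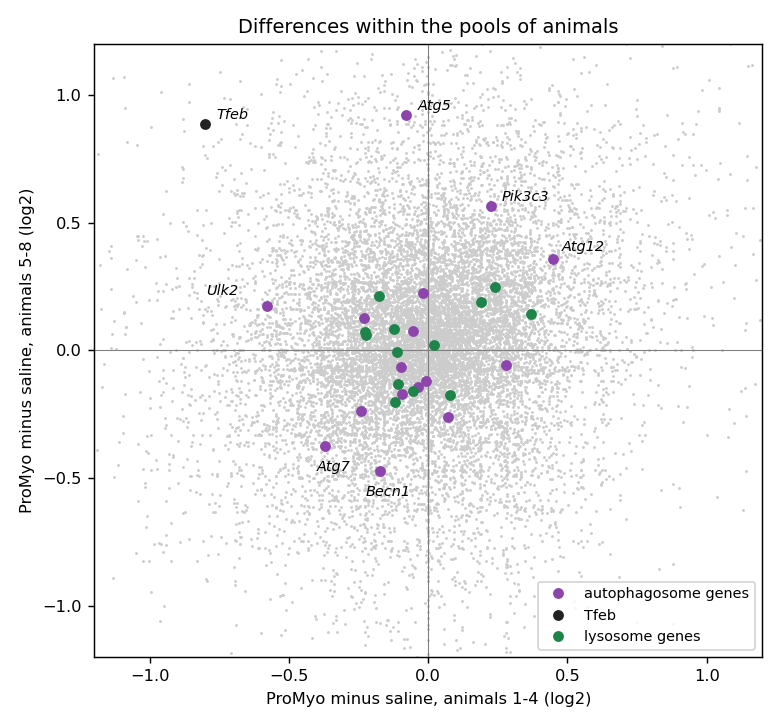
Difference ProMyo minus saline (log2) within animals 1-4 (horizontal axis) and within animals 5-8 (vertical axis), with autophagosome genes in purple, lysosome genes in green, Tfeb in black and all genes tested in grey; the axes end at 1.2 either way. Atg12 lies high in both pools, Becn1 and Atg7 low in both, and Tfeb has opposite signs, at -0.80 and 0.89.

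Tfeb itself could not be placed. It read 2.06 on both ProMyo arrays, 2.86 on the saline 1-4 array and 1.18 on the saline 5-8 array, so the saline arrays lay on either side of the ProMyo arrays. The difference was 0.043 ± 0.55 (limma, adjusted p = 0.997, n = 2), and its 95% interval ran from -1.35 to 1.43, the widest of the 30 genes. The pools gave -0.80 and 0.89. The 2 ProMyo arrays held the same value to the last digit for Tfeb and for Npc1, as they did at 5.62% of 45037 probe sets, against 0.679% for the 2 saline arrays, so this sameness is no measure of replicate spread.

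The genes of lysosomal membrane proteins differed in direction. Scarb2, which carries glucocerebrosidase to the lysosome, read 7.85 and 7.76 in ProMyo legs and 7.66 and 7.57 in saline legs. Both ProMyo arrays were higher, by 0.19 in each pool, and the difference was 0.19 ± 0.16 (limma, adjusted p = 0.867, n = 2). The next brightest probe set of Scarb2 read 0.48 and was also higher in both pools.

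Lamp1 and Lamp2, the abundant glycoproteins that line the membrane, differed by -0.059 ± 0.17 and -0.082 ± 0.18. Lamp1 read 8.35 and 8.27 in ProMyo legs and 8.46 and 8.27 in saline legs, with overlapping groups; its promoter holds the 4 E-box copies printed above. Npc1, which exports cholesterol from the lysosome, differed by 0.017 ± 0.19, with -0.18 and 0.21 in the pools. The 4 measured membrane genes had a median difference of -0.021.

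Among the 5 cathepsin genes of the 32, Ctsl was the 1 whose groups did not overlap. Ctsl encodes cathepsin L, a lysosomal protease induced in wasting muscle. It read 6.50 and 6.39 in ProMyo legs and 6.26 and 6.14 in saline legs. The pools gave 0.24 and 0.25, and the difference was 0.24 ± 0.16, or 1.18-fold (limma, adjusted p = 0.846, n = 2). Its next brightest probe set read -0.13, with 0.12 in animals 1-4 and -0.39 in animals 5-8.

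Ctsz, a carboxypeptidase, differed by 0.26 ± 0.20 and was higher in both pools at both of its brightest probe sets, but its groups overlapped at 5.18. Its difference was 0.071 with ProMyo 1-4 left out and 0.44 with ProMyo 5-8 left out, and a dimmer probe set read 0.43 and -0.056 in the pools. Ctsb and Ctsd, which encode a cysteine and an aspartic protease, differed by -0.11 ± 0.18 and -0.048 ± 0.18. The next brightest probe set of Ctsb read -0.048, with opposite signs in the pools. The 2 after it read 0.39 and 0.36 and were higher in both pools, and the mean of all 5 was 0.11. Ctsa, a carboxypeptidase that also shields other lysosomal enzymes and whose promoter holds the doubled palindrome, differed by 0.020 in both pools. At the brightest probe sets of the 5 genes, 3 were higher in both pools, 1 was lower in both and 1 was opposite.

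The 4 genes for other proteins of the lysosomal lumen had a median difference of -0.10. Npc2, a soluble carrier that hands cholesterol to Npc1, read 5.92 and 5.83 in ProMyo legs and 6.04 and 6.03 in saline legs. Both ProMyo arrays were lower, by 0.16 ± 0.16 (limma, adjusted p = 0.893, n = 2), while the next brightest probe set read 0.32 the other way. Gaa, the acid glucosidase that degrades glycogen in lysosomes, differed by -0.12 ± 0.18, and its next brightest probe set by -0.17; both were lower in both pools, with overlapping groups at the brightest. Hexa and Psap, which serve the breakdown of glycolipids, differed by -0.077 ± 0.17 and -0.018 ± 0.17. Over all 13 measured lysosome genes, 4 were higher in both pools, 4 lower in both and 5 opposite. The median was -0.048, with -0.11 in animals 1-4 and 0.059 in animals 5-8. Leaving out ProMyo 5-8 gave 0.015, leaving out saline 1-4 gave 0.037 and leaving out saline 5-8 gave -0.13.

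The 9 genes with CACGTG in a promoter did not share a direction. Their differences ran from -0.37 at Atg7 to 0.42 at Atg5 with a median of -0.059; 2 were higher in both pools, 5 lower in both and 2 opposite. The 15 measured genes whose promoters lacked these letters had a median of -0.052, with 2 higher in both pools, 3 lower in both and 10 opposite. The difference between these groups of genes was not tested.

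Probe sets of the same gene often disagreed in direction. For 20 of the 30 genes at least 2 probe sets were above background on all arrays, and the brightest and the next brightest had the same sign at 9 of them (45%), against 58.3% of 4615 genes with such a pair. Both were higher in both pools at Atg12, Scarb2 and Ctsz, 15% of the 20 against 13.1% of all such genes. Both were lower in both pools at Becn1 and Gaa, 10% against 7.06%. Among the genes with opposite signs, Psap read -0.018 and 0.38 and Ctsl 0.24 and -0.13.

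**Figure D3:**
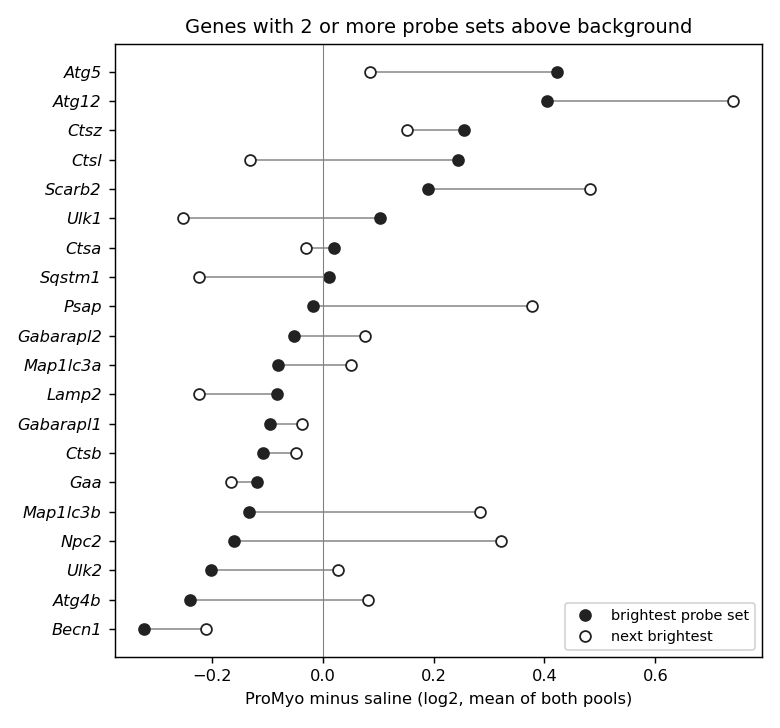
Difference ProMyo minus saline (log2, mean of both pools) at the brightest probe set (filled) and the next brightest (open) of the 20 genes with at least 2 probe sets above background, joined by a line for each gene. The pairs of Atg12 and Scarb2 lie to the right of 0, the pair of Becn1 to the left, and those of Map1lc3b, Npc2 and Ctsl cross it.

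The wider pathway was measured through 144 further genes, of which 143 were tested, and 0 of them passed limma's threshold. At an unadjusted p under 0.05, 1 was higher and 5 were lower, where 3.07% and 2.72% of all genes were. In both pools 52 of the 144 were higher and 31 lower, and 61 were opposite, where 29%, 24% and 47% of all genes were. The same shares of all genes stand beside the counts of each list below. The median difference of the 144 was 0.032. Autophagy machinery other than the genes above had 5 higher in both pools, 4 lower and 15 opposite of 24. Its gene with the smallest p was Atg13, a scaffold of the Ulk1 complex, at -0.59 ± 0.22 (limma, adjusted p = 0.822), while its next brightest probe set read 0.29. Wipi1, of the same list, differed by 0.32 ± 0.16 at its brightest probe set, by 0.28 at the next brightest and by -0.39 at the one after.

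Tfe3, the relative of Tfeb that binds the same letters, was lower in ProMyo muscle at the 1 probe set that reads it. It read 5.38 and 5.31 in ProMyo legs and 5.81 and 5.80 in saline legs, and the groups did not overlap. The difference was -0.46 ± 0.15 (limma, adjusted p = 0.822, n = 2). Of the 13 measured genes of its list, which covers the TFE family and lysosomal nutrient sensing, 8 were higher in both pools and 1, Tfe3, was lower in both, with a median of 0.12. Rraga and Lamtor3, which hold the growth kinase mTOR at the lysosome when amino acids are present, differed by 0.46 ± 0.23 and 0.31 ± 0.16.

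The proton pump that acidifies the lysosome had 6 of 16 subunits higher in both pools and 3 lower, with a median of 0.029. Atp6v1c1, a subunit of its cytosolic part, differed by 0.43 ± 0.17 (limma, adjusted p = 0.822). It was higher in both pools at each of its 3 probe sets, which read 0.43, 0.33 and 0.75. Atp6v0b and Atp6v1e1, of the membrane and the cytosolic part, differed by -0.21 ± 0.16 and -0.19 ± 0.15, with both ProMyo arrays below both saline arrays. The next brightest probe set of Atp6v0b read 0.060, higher in both pools, and the one after it -0.34, lower in both. For Atp6v1e1 the next brightest read -0.16 and was lower in both pools. The 33 other lysosomal hydrolases had 9 higher in both pools, 12 lower and 12 opposite, with a median of -0.061. Galc, which degrades galactosylceramide, and Acp2, an acid phosphatase, differed by 0.53 ± 0.24 and 0.30 ± 0.17, and the next brightest probe set of Acp2 read -0.15. Ctso, a cathepsin, differed by -0.58 ± 0.17 (limma, adjusted p = 0.822) and by -0.22 at its next brightest probe set, with opposite signs in the pools. Naglu, a hydrolase of heparan sulfate, was within background on both ProMyo arrays, at 0.28 and 0.20, and read 1.30 and 1.02 in saline legs, so the size of its difference is uncertain.

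Other lysosomal membrane genes had a median of -0.12 over 18 genes and lysosomal sorting genes one of 0.14 over 14, with 4 and 9 higher in both pools. Ostm1, a partner of the lysosomal chloride exchanger, differed by 0.33 ± 0.17, and M6pr, which sorts hydrolases to the lysosome, by 0.26 ± 0.17. The next brightest probe set of M6pr read -0.21 and was lower in both pools. The 12 other autophagy receptors had 7 higher in both pools and 2 lower, with Phb2 at 0.30 ± 0.18 (next brightest probe set -0.036) and Fkbp8 at -0.33 ± 0.22. The 14 genes of autophagosome fusion had 4 higher and 2 lower, with Vps11 at 0.33 ± 0.20 (next brightest 0.44, with opposite signs in the pools) and Plekhm1 at -0.30 ± 0.20. None of these 6 genes passed the test.

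**Figure D4:**
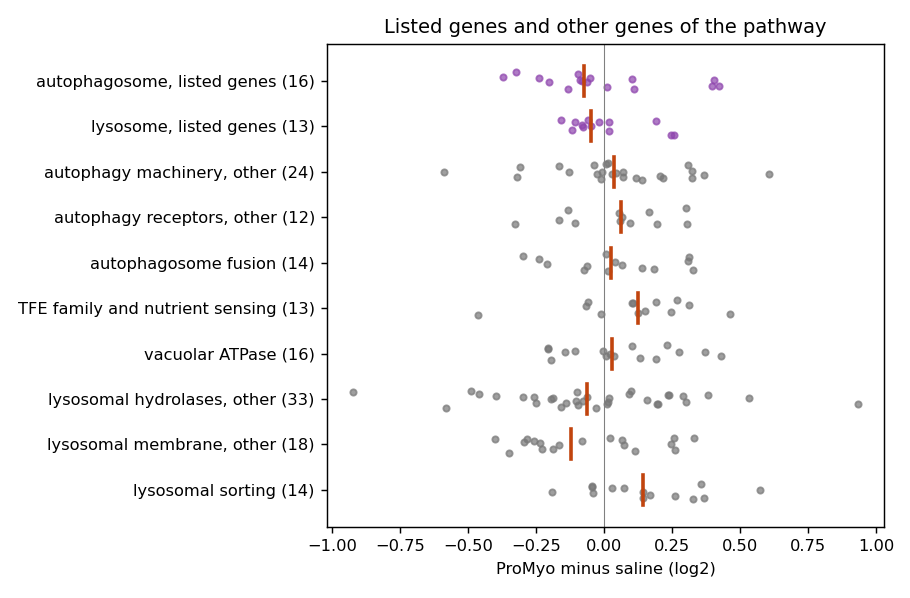
Difference ProMyo minus saline (log2, horizontal axis) of the measured autophagosome and lysosome genes (purple) and of the other genes of the pathway by list (grey), 1 point a gene, with the number of genes in brackets and the median of each list as an orange bar. The medians lie between -0.12 and 0.14.

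Cells other than muscle fibres also hold many lysosomes, and 0 of their markers passed limma's threshold, as 0% of all genes did. Among 57 markers tested, those of muscle fibres included, 0 were higher and 5 lower at an unadjusted limma p under 0.05. The shares of all genes were 3.07% and 2.72%. The 5 were C1qb and Mrc1 of macrophages and Col1a1, Col1a2 and Pi16 of fibroblasts. Of 19 macrophage markers, 11 were lower with ProMyo in both pools and 2 higher in both, where 24% and 29% of all genes were. The 2 higher ones were Cd163 and Ccr2, at 0.37 and 0.60, with both ProMyo arrays above both saline arrays. Cx3cr1 was within background on all arrays. The 19 markers summed to 321 and 287 in linear signal in ProMyo legs and 377 and 323 in saline legs, so the groups were only just apart. Laptm5, a lysosomal membrane protein of blood cells, differed by -0.35 ± 0.19 beside them. Of 10 fibroblast markers, 8 were lower in both pools and 1 higher, with a median difference of -0.15. Their sums were 1101 and 1093 against 1320 and 1448, and bright markers weigh most in a sum. The collagen genes Col1a1 and Col1a2 differed by -0.68 and -0.78. Pdgfra, Dpt and Cd34 differed by -0.10, -0.059 and -0.094, while Dcn and Lum differed by 0.027 and 0.63. Of 7 endothelial markers, 4 were higher in both pools and 0 lower. Of 5 neutrophil markers, 1 was higher in both and 1 lower, and of 4 adipocyte markers 0 and 1. Of 14 muscle fibre markers, 10 were higher in both pools and 3 lower. The part of these differences in the values of the lysosome genes was not tested.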

How the data were processed

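Labelled RNA was hybridised to Affymetrix mouse arrays, and the authors summarised probe sets by RMA with the Affymetrix Expression Console (submitters' processing notes; no version is given in the sources used here). The deposited values were taken as log2: no label names the base, and a range of -0.45 to 13.2 fits this base. RMA leaves probe set values whose levels cannot be compared between genes. Of 45101 probe sets, 64 controls were left out, 34958 had 1 symbol, 932 several and 9211 none. Symbols were checked in RefSeq (GRCm38.p6), where 34754 matched and 0 changed. The filter kept genes whose probe set averaged at least 0.454, the 25th percentile. The groups were compared in limma 3.58.1 (R 4.3.3; lmFit, eBayes; 2 residual and 3.16 prior degrees of freedom), adjusted by Benjamini-Hochberg at 0.05. The fit was also run on simulated data. The differences planted there were all larger than those of the measured genes of the 32, so that run does not cover differences of their size. Background was the highest Bacillus control of each array. With 2 arrays a group, the number of arrays limits precision: the median standard error over genes was 0.193. Both legs came from the same mice, so the pools are paired by the design; deviations of same-numbered pools correlated with r = 0.16 over genes. The alternatives were a replicate block, other filters, a trend and robust variance model, other scalings, other probe set rules and leaving out each array. All measured genes of the 32 are named; those with non-overlapping groups, or the smallest p of their role, are given array by array (Pik3c3, Atg5 and Lamp1 were added after their values were seen), with up to 2 genes per direction of each further list. The genes, lists and rules were chosen with earlier results of these data known; the window shown for Lamp1, the third and further probe sets and the counts against the saline 1-4 array were chosen after seeing the values.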

Additional observations from a re-analysis of the deposited data

How the results depend on the processing

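By limma, 0 genes and 0 of the 30 autophagy and lysosome genes were called as reported and under the replicate block, without a filter, with one at the 50th percentile, with trend and robust variance, both scalings, both other probe set rules and each array left out; between 353 and 1599 genes had an unadjusted p under 0.05. The paired fit changed no call. Autophagosome genes higher in both pools went from 2 to 4 with the mean of probe sets and 6 with the second brightest. Their median difference of -0.072 was -0.13 after quantile normalization (median of all genes -0.020), -0.00122 with the mean of probe sets and 0.0636 with the second brightest; leaving out 1 array gave -0.0741 to -0.0190. The lysosome median of -0.048 ran from -0.13 to 0.037 when 1 array was left out. Lysosome genes lower in both pools went from 4 to 7 after quantile normalization. Genes with both ProMyo arrays above both saline arrays went from 3 to 5 (mean of probe sets), 7 (second brightest) and 5 (saline 1-4 alone). Those below went from 7 to 12 (quantile) and 18 (saline 1-4 alone). Some signs turned among the 11 genes picked for non-overlapping groups or the smallest p of their role. With the mean of probe sets these were Map1lc3b (0.0754), Atg7 (0.0131) and Npc2 (0.00328). With the second brightest they were Map1lc3b (0.28), Atg4b (0.0812), Atg7 (0.30), Ctsl (-0.13) and Npc2 (0.32). Tfeb ran from -0.80 without the saline 5-8 array to 0.89 without the saline 1-4 array. Over all 30 genes the sign changed at 12 with the second brightest probe set, 10 with the mean of probe sets, 3 after quantile normalization, 0 after median centring, 3 without either ProMyo array, 6 without saline 1-4 and 5 without saline 5-8. The 8 genes with 1 probe set cannot change sign under either of the other probe set rules. The 10 genes picked for groups that do not overlap cannot change sign when 1 array is left out. The cause was not tested. Leaving out 1 array leaves a lone array that is assumed to vary like the other group; counts within pools need both arrays of a pool and have no such value.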
